A study of Mus musculus with 2 samples.

Results

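Receptors that steer T cells were followed through the donor T cells of a colon with graft-versus-host disease. The 9 genes, of 31053 in the count matrix, were taken from a fixed list by symbol. They comprised the gut homing receptor Ccr9, the chemokine receptors Ccr2, Ccr4, Ccr8, Cxcr3, Cxcr4, Cxcr5 and Cxcr6, and the oxysterol receptor Gpr183. All 9 had UMIs (unique molecular identifiers, 1 per captured transcript) in kept cells. The label that groups them as chemokine receptors holds for 8. Gpr183, which binds oxysterols, is a chemoattractant receptor of another family.

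Balb/c mice had been lethally irradiated and given 5000000 bone marrow cells with splenocytes adjusted to 800000 alpha beta T cells, all from C57BL/6 (B6) donors. On day 21, cells of the colons of 5 such mice were released with a lamina propria dissociation kit and pooled, and donor T cells were taken by a sort for H2-Kb and the beta chain of the T cell receptor (TCR). Droplets with 5' chemistry gave 1 library of RNA and 1 of TCR transcripts. It is 1 sample: the mice cannot be told apart, no untreated or syngeneic colon was compared here, no comparison has a replicate check, and no test was run. The groups compared below are cells of this pool, all of the same strain, treatment, day and tissue.

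Chemokine receptors are G protein-coupled receptors that move a cell up a gradient of their ligands, and the set on a T cell helps to decide which tissue it enters and where in that tissue it stays. Ccr9 answers to Ccl25 of the intestinal epithelium and is best known for homing to the small intestine. Ccr4 and Ccr8 are known from type 2 helper, regulatory and skin-homing cells, Cxcr3 from type 1 and cytotoxic cells, Cxcr5 from follicular helper cells, and Cxcr6 from cells that reside in tissues.

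Of 5348 barcodes, 5333 were kept, with a median of 4800 UMIs and 1804 genes. The CD4 class held 1861 cells (34.9%) in which Cd4 was found without Cd8a or Cd8b1, at a median of 4768 UMIs. The CD8 class held 2391 cells (44.8%) in which Cd8a or Cd8b1 was found without Cd4, at a median of 4910 UMIs, although the titles name CD4 T cells. A further 301 cells had UMIs of both and 780 of neither. T cell markers were present throughout, with UMIs of 2 or more of 6 such genes in 1858 CD4 class and 2388 CD8 class cells. Markers of other cells were few: summed over 11 myeloid genes they made 0.803 UMIs per 10000 among CD4 class cells and 0.764 among CD8 class cells, and 85 kept barcodes, 24 of each class, carried 3 or more of these genes. A list of 8 innate lymphoid and NK cell genes, some of which T cells also express, made 1.06 and 1.16 per 10000, with Ncr1 at 0 and 191 kept barcodes that carried 2 or more. Apart from Ccr9, 5 genes of plasmacytoid dendritic cells made 0.844 and 0.994 per 10000, with Siglech, Spib and Klk1 at 0 and 64 such barcodes. The B cell genes Cd79a and Pax5 were at 0. Genes that tissue dissociation is known to induce (14 on the list) summed to 66.6 per 10000 among CD4 class cells and 44.5 among CD8 class cells, and their part in the class differences was not tested.

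Of the receptor genes 6 lie on mouse chromosome 9 (mm10, GENCODE annotation). Ccr9 (chr9:123678439-123784330, plus strand) ends 22144 bases before Cxcr6 (chr9:123806475-123811760, plus strand), and Ccr2 (chr9:124101950-124113557, plus strand) ends 435119 bases after the start of Ccr9. Also on this chromosome are Ccr8 (chr9:120092114-120094906, plus strand), Ccr4 (chr9:114490316-114504916, minus strand) and Cxcr5 (chr9:44511787-44561877, minus strand). Cxcr3 lies at chrX:101731535-101734269, Cxcr4 at chr1:128588199-128592293 and Gpr183 at chr14:121952551-121965195, all on the minus strand. Overlaps with a gene of the opposite strand involve 3 members, Ccr9 with Lztfl1, Cxcr6 with Fyco1 and Gpr183 with Ubac2. The sources used here do not say whether counting used strand, so reads of such partners might not be separable.

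The 2 receptors that most separated the lineages, Ccr8 and Ccr4, are shown with their promoters, since they were also found together in cells more often than their shares give. The sequences run from 250 bases before to 50 after the RefSeq gene start (RefSeq, GRCm38.p6), at chr9:120091883-120092182 on the plus strand for Ccr8 and chr9:114496495-114496794 on the minus strand for Ccr4. The Ccr4 window lies within the GENCODE span of the gene given above, so RefSeq and GENCODE place the start of Ccr4 apart. Capitals mark motif matches.
Ccr8 promoter: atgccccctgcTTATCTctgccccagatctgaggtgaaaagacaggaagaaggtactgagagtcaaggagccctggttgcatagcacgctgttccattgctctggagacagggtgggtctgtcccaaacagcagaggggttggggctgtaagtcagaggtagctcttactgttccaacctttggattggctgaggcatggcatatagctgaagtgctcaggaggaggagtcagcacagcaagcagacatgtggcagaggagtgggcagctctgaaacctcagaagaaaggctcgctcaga
Ccr4 promoter: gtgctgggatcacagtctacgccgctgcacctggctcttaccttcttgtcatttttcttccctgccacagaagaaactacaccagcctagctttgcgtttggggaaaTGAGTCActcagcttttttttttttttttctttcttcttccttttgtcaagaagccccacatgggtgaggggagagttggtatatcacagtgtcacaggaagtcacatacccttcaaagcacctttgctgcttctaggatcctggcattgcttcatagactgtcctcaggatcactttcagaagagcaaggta
The Ccr8 window held the GATA factor motif AGATAA, as its reverse complement TTATCT, as did 11.2% of 32851 promoter windows of this length in either orientation. The Ccr4 window held the AP-1 motif TGACTCA, as its reverse complement TGAGTCA, against 5.20% of all windows. Among the 8 members with a window, Ccr2 also held AGATAA, and Ccr2 and Cxcr6 held the NFAT motif TGGAAA, found in 21.4% of all windows. AGGTCA (16.3% of all windows) and the T-box motif AGGTGTGA (1.28%) were in none of the 8. These matches describe the letters of the windows.

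The antigen receptor sequences that carry the findings on clones are those of the largest CD8 class clonotype, which held much of the Ccr9 of its class, and of 2 of the 4 largest CD4 class clonotypes, which were rich in Ccr8. Each is the nucleotide sequence of the third complementarity determining region (CDR3), the part that joins the V and J segments. Alpha chains come from the TRA locus on chromosome 14 and beta chains from the TRB locus on chromosome 6.
CD8 clonotype 1, TRAV7-5 and TRAJ45: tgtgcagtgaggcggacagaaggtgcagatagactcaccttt
CD8 clonotype 1, TRBV13-1 and TRBJ1-3: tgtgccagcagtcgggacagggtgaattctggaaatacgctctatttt
CD4 clonotype 1, TRAV13D-2 and TRAJ43: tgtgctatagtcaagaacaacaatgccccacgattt
CD4 clonotype 1, TRBV4 and TRBJ2-4: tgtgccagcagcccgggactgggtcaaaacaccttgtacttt
CD4 clonotype 3, TRAV4D-4 and TRAJ50: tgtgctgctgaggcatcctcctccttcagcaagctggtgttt
CD4 clonotype 3, TRBV17 and TRBJ2-4: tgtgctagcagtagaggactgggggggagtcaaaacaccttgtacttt

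The first question was which receptors differ between the lineages. Ccr4, Ccr8, Cxcr5 and Ccr9 were past 1.5-fold higher in the CD4 class, none was past it lower, and the other 5 were close between the classes. Past 1.5-fold in either direction were 4 of 9 members, beside 14.9% of the 10133 genes with 50 or more UMIs over both classes. Levels are UMIs per 10000 UMIs of a class with exact Poisson intervals, ratios carry exact conditional binomial intervals, and shares are of cells thinned to 2000 UMIs, a depth that every kept cell reached, with Clopper-Pearson intervals. All are 95% intervals that cover counting error only and take UMIs as independent, although a positive cell often holds several. A level does not tell fewer positive cells from fewer transcripts per cell, so the share of cells is given beside it.

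Ccr4, the receptor of Ccl17 and Ccl22, stood at 0.316 per 10000 in the CD4 class (0.284 to 0.351, 351 UMIs) and 0.0133 in the CD8 class (0.00815 to 0.0206, 20 UMIs), a ratio of 23.7 (15.1 to 39.2). It was found in 5.80% of CD4 class cells and 0.251% of CD8 class cells, and before thinning in 14.0% and 0.586%. The myeloid barcodes, which also hold T cells, had it in 3.53%.

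Ccr8, the receptor of Ccl1 and in mice of Ccl8, stood at 1.73 per 10000 in the CD4 class (1.66 to 1.81) and 0.161 in the CD8 class (0.141 to 0.182). The ratio was 10.8 (9.43 to 12.4). It was found in 22.1% of CD4 class cells (20.2 to 24.0) and 2.17% of CD8 class cells (1.63 to 2.84), and before thinning in 36.5% and 5.19%. With 1 cell per clonotype the log2 ratio was 2.40 for Ccr8, against 3.43 over all cells, and 6.02 for Ccr4, against 4.57. Here and below, this setting also leaves out every cell without a clonotype, so it changes the set of cells as well. Of the kept cells 2628 (49.3%) had a clonotype, in 826 clonotypes.

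Cxcr5, the receptor of the B cell follicle chemokine Cxcl13, was scarce, with 38 UMIs among CD4 class cells and 12 among CD8 class cells. Its ratio was 4.27 (2.19 to 8.98), and it was found in 0.860% of CD4 class cells (0.492 to 1.39) and 0.167% of CD8 class cells (0.0456 to 0.428). The CD8 class share rests on 4 cells, and on 10 before thinning. The part of free RNA in such low shares, also in that of Ccr4 in the CD8 class, was not tested.

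Ccr9 was 1.79-fold higher by level (1.56 to 2.05), with 0.456 per 10000 among CD4 class cells and 0.255 among CD8 class cells. After thinning its share of cells was nearly equal, 4.78% of the CD4 class (3.86 to 5.85) and 4.64% of the CD8 class (3.83 to 5.56), but before it the share was 11.02% of the CD4 class and 8.16% of the CD8 class. Before thinning, positive CD4 class cells held 2.47 Ccr9 UMIs on average and positive CD8 class cells 1.96. With every cell weighted alike the log2 ratio of the level was 0.53, under 1.5-fold, against 0.84. The shares do not settle whether the classes differ in the number of Ccr9+ cells.

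Cxcr6, the receptor of Cxcl16, was found in 46.9% of CD4 class and 45.3% of CD8 class cells, at a ratio of 1.14 (1.09 to 1.18). Gpr183 was found in 28.6% and Ccr2, the receptor of Ccl2, in 23.0% of CD4 class cells, and in 26.8% and 21.5% of CD8 class cells, at ratios of 1.17 (1.10 to 1.24) and 1.06 (0.989 to 1.13). Cxcr3, the receptor of Cxcl9 and Cxcl10, was found in 19.7% of the CD4 class and 20.8% of the CD8 class, at a ratio of 1.01 (0.933 to 1.08). Cxcr4, the receptor of Cxcl12, was found in 13.1% of the CD4 class and 10.4% of the CD8 class, at a ratio of 1.26 (1.15 to 1.39). With 1 cell per clonotype Cxcr4 stood at a log2 ratio of -0.46, against 0.34 over all cells. These 5 receptors differed by less than 1.5-fold. Before thinning Cxcr6 was found in 67.9%, Gpr183 in 52.1%, Ccr2 in 37.6%, Cxcr3 in 39.3% and Cxcr4 in 27.0% of CD4 class cells, and in 69.8%, 49.4%, 35.8%, 41.9% and 25.5% of CD8 class cells.

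The cells with neither Cd4 nor Cd8 UMIs, at a median of 3955 UMIs, lay near the CD4 class for Ccr8 (20.8% of cells) and Ccr4 (6.28%). The cells with both, at a median of 7939 UMIs, had Ccr8 in 17.9% and Ccr4 in 4.98%. In the 85 myeloid barcodes Cxcr6 was found in 24.7%, Ccr8 in 4.71%, Ccr9 in 3.53% and Ccr2 in 21.2%.

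**Figure D1:**
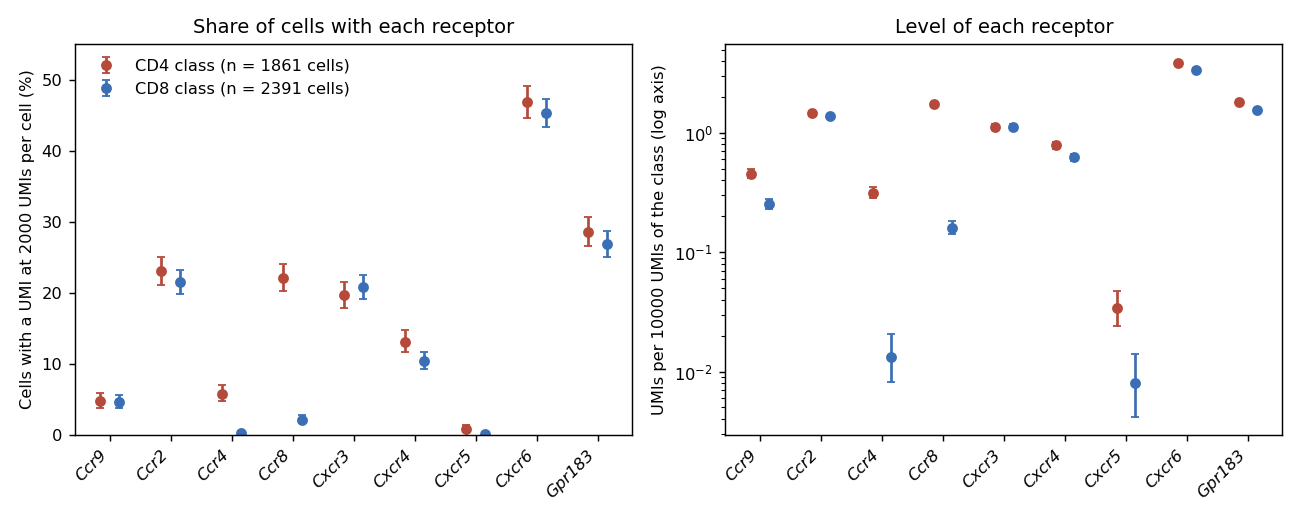
Share of cells with a UMI of each receptor after thinning (left, percent) and level in UMIs per 10000 (right, log axis), for the CD4 class (red) and the CD8 class (blue); bars are 95% Clopper-Pearson and Poisson intervals for counting error. Ccr4 and Ccr8 lie far apart between the classes (5.80% and 22.1% of CD4 class cells, 0.251% and 2.17% of CD8 class cells), while the 2 points of Ccr9 lie together by share after thinning and apart by level.

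In most cells few of the 9 receptors were detected at the thinned depth. Shares before thinning were higher, as given above, so these numbers and patterns depend on depth. None of the 9 was detected in 15.5% of CD4 class cells and 21.7% of CD8 class cells, and the mean number was 1.65 and 1.32 at the thinned depth. The most frequent single pattern in either class was Cxcr6 alone, in 11.1% of the CD4 class and 16.6% of the CD8 class, followed by Gpr183 alone, in 5.43% and 7.07%. Cxcr6 with Gpr183 made 4.94% of the CD4 class and 6.32% of the CD8 class. Ccr8 with Cxcr6 made 4.41% and Ccr8 alone 4.03% of the CD4 class.

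The other chemoattractant receptors on a list of 25 were read the same way. Of the 13 with enough UMIs, 5 were past 1.5-fold higher and 2 lower in the CD4 class, beside 14.9% of all genes past it either way. Their median log2 ratio was 0.41, against -0.04 over all genes tested. The highest were Ccr6, a receptor of type 17 helper cells, at a ratio of 13.1 (6.03 to 33.8), Ccr1 at 7.15 (4.91 to 10.7), the leukotriene B4 receptor Ltb4r1 at 7.13 (5.67 to 9.06) and the prostaglandin receptor Ptger2 at 3.54 (3.06 to 4.09). The fractalkine receptor Cx3cr1 was lower at 0.404 (0.297 to 0.543). Gpr15, a receptor for homing to the large intestine, had 29 UMIs among CD4 class cells and 1 among CD8 class cells, below the minimum of 50. Among homing integrins and selectin ligands, 2 of 13 measured genes were higher and 3 lower, beside the same 14.9% of all genes. Itgb7, a chain of the gut homing integrin, was nearly equal, at a ratio of 1.04 (0.996 to 1.08).

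Transcripts of ligands of the members were also found among the sorted cells. The 24 barcodes of each class with myeloid transcripts were included, and their part and that of free RNA were not tested. Of 17 on the list, 6 had enough UMIs. In the CD4 class 3 of these were past 1.5-fold higher and none lower, beside 14.9% of all genes past it either way. Ccl1, the ligand of Ccr8, stood at 2.05 per 10000 among CD4 class cells and 0.315 among CD8 class cells, a ratio of 6.52 (5.90 to 7.21). Cxcl16, the ligand of Cxcr6, had 48 UMIs among CD4 class cells and 37 among CD8 class cells (ratio 1.75, 1.12 to 2.76), and Ccl8 had 32 and 21 (ratio 2.06, 1.15 to 3.75).

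The second question was which receptors go with which cytokine. In the CD4 class, Ccr8 was higher in cells that made granulocyte-macrophage colony-stimulating factor (Csf2), type 2 cytokines or amphiregulin, and Ccr9 and Cxcr3 were lower in Csf2+ and Areg+ cells. Classes were set on thinned cells, 1 cell can be in several, and each was compared with all other cells of its lineage. Over 11 genes that set classes, 17 of 88 measured pairs of gene and receptor were past 1.5-fold higher and 20 lower. In the CD8 class 9 of 41 pairs were higher and 7 lower. The share of all genes past 1.5-fold differed widely, from 6.62% for Ifng+ to 42.2% for Foxp3+ cells in the CD4 class. In the CD8 class it went from 5.7% for Ifng+ to 38.2% for Il10+ cells. The pooled counts are therefore to be read beside the share given for each comparison below. Cxcr5 in both classes and Ccr4 in the CD8 class had too few UMIs throughout.

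In the 194 Csf2+ CD4 class cells, 4 of 8 measured receptors were past 1.5-fold, beside 17.8% of all genes tested. Ccr8 stood at 3.33 per 10000 in Csf2+ cells (3.01 to 3.67) and 1.54 in Csf2- cells (1.47 to 1.62), a ratio of 2.16 (1.93 to 2.41), and was found in 40.7% and 19.9% of cells. Ccr9 stood at 0.101 per 10000 in Csf2+ cells and 0.499 in Csf2- cells, a ratio of 0.202 (0.104 to 0.356). It was found in 2 of the 194 cells. Cxcr3 stood at 0.395 in Csf2+ cells and 1.22 in Csf2- cells, a ratio of 0.325 (0.237 to 0.435). Ccr4 had 20 UMIs in Csf2+ cells, at a ratio of 0.504 (0.304 to 0.790), and its log2 ratio lay between -1.72 and -0.50 under the other settings, in 2 of them under 1.5-fold. The median depth of the groups was close, 4790 UMIs in Csf2+ and 4768 in Csf2- cells. Genes of tissue dissociation summed to 88.7 per 10000 in Csf2+ cells and 63.9 in Csf2- cells, and their part in these differences was not tested. Under the other settings the log2 ratio of Ccr8 lay between 0.77 and 1.25, that of Cxcr3 between -1.91 and -1.52 and that of Ccr9 between -3.95 and -1.65.

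Cells positive for Areg, the growth factor amphiregulin, moved alike. In the 436 Areg+ CD4 class cells Ccr8 was higher at 1.76 (1.596 to 1.93), with 29.1% of Areg+ and 19.9% of Areg- cells, while Ccr9 was lower at 0.607 (0.471 to 0.773) and Cxcr3 at 0.606 (0.517 to 0.706). These were 3 of 8 receptors, beside 9.7% of all genes. The log2 ratio of Ccr9 was -0.55 with 1 cell per clonotype and that of Cxcr3 -0.54 when thinned to 1000 UMIs, both under 1.5-fold. Cycling genes were lower in Areg+ cells too, at 9.15 per 10000 in Areg+ and 14.4 in Areg- cells, and their part was not tested.

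The type 2 cytokine Il4 was found in 41 CD4 class cells and Il13 in 28, and their results carry wide errors. Ccr8 was found in 48.8% of Il4+ and 21.5% of Il4- cells, at a ratio of 2.43 (1.95 to 2.997), and in 60.7% of Il13+ and 21.5% of Il13- cells, at a ratio of 3.01 (2.43 to 3.69). Cxcr3 had no UMI in Il4+ cells and 1253 in Il4- cells. Set to a floor of 3 UMIs, Cxcr3 had a ratio of 0.116, which is not an upper bound. Its log2 ratio, -3.11, was -2.35 with another thinning seed and -0.74 with 1 cell per clonotype. In Il13+ cells its log2 ratio was -0.88, and -0.32 when each clonotype gave 1 cell. The log2 ratio of Ccr9 was -1.38 in Il4+ cells, but 0.0927 with 1 cell per clonotype and under 1.5-fold in 4 other settings, so no direction can be read. In Il13+ cells it was -2.17. Cxcr4 had 4 UMIs in Il4+ cells, at a ratio of 0.222 (0.0602 to 0.569). Past 1.5-fold were 5 of 8 receptors in Il4+ cells and 3 of 8 in Il13+ cells, beside 41.8% and 36.5% of all genes, so that such counts stand near those of any gene in classes this small. Cycling genes were low in these cells, at 2.76 per 10000 in Il4+ and 13.4 in Il4- cells, and at 3.30 in Il13+ and 13.4 in Il13- cells, and their part was not tested.

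Interferon gamma told the receptors apart little. In 413 Ifng+ CD4 class cells, 0 of 8 receptors were past 1.5-fold, beside 6.62% of all genes, and in 161 Tnf+ cells 1 of 8 was, Ccr4 at 0.427 (0.231 to 0.726), beside 12.6%. The log2 ratio of Ccr4 in Tnf+ cells was -0.43 with no thinning and -0.15 at 3000 UMIs, against -1.23. Myeloid genes summed to 3.79 per 10000 in Tnf+ and 0.513 in Tnf- cells, with 4 of 5 measured past 1.5-fold higher, and their part was not tested.

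In cells with Il10, an anti-inflammatory cytokine (46 cells), Cxcr4 was found in 41.3% of Il10+ and 12.4% of Il10- cells, at 1.93 and 0.770 per 10000 and a ratio of 2.504 (1.77 to 3.45). Its log2 ratio kept between 0.87 and 1.58 under the other settings. Gpr183 was lower in Il10+ cells at 0.512 (0.307 to 0.801). Ccr9 (ratio 2.80) and Ccr2 (2.03) were also past 1.5-fold, but log2 values of 0.47 for Ccr9 with another thinning seed and -0.016 for Ccr2 when thinned to 1000 UMIs show how far they depend on the draw. Together 4 of 8 were past the fold, beside 38.4% of all genes. Il10+ cells were shallower, with a median of 3590 UMIs against 4809 in Il10- cells.

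Foxp3, the factor that defines regulatory T cells, was found in 22 CD4 class cells. Ccr2 was found in 54.5% of Foxp3+ and 22.6% of Foxp3- cells and stood at 6.78 per 10000 in Foxp3+ cells (5.39 to 8.43) and 1.40 in Foxp3- cells (1.34 to 1.48). The ratio was 4.83 (3.81 to 6.04), and the log2 ratio lay between 1.90 and 2.56 under the other settings. Cxcr6 was lower in Foxp3+ cells at 0.609 (0.404 to 0.882), with 22.7% of Foxp3+ and 47.2% of Foxp3- cells. Ccr9 had 22 UMIs in Foxp3+ cells, 63.6% of them in 1 cell. Past the fold were 6 of 8 receptors, beside 42.2% of all genes. Among them Ccr4, which was higher, and Cxcr4, which was lower, had intervals that include a ratio of 1. Ccr8 was higher at a log2 ratio of 0.68, with 0.45 to 1.44 under the other settings. It was under 1.5-fold when thinned to 1000 UMIs (0.45) and with no thinning (0.52).

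For the remaining small classes the counts past 1.5-fold were 4 of 8 receptors in 44 Il17a+ cells (31.7% of all genes), 3 in 24 Il22+ cells (37%) and 4 in 48 Il21+ cells (30.5%). Ccr4 was higher in Il17a+ cells at 1.94 (1.19 to 3.02), with log2 values of 0.78 to 1.19 under the other settings. Ccr2 was lower in Il22+ cells at 0.363 (0.156 to 0.716) and in Il21+ cells, which make a helper cytokine for B cells, at 0.428 (0.244 to 0.698). Ccr8 was lower in Il22+ cells at 0.536 (0.293 to 0.902). In Il21+ cells Ccr8 stood at 2.11 (1.69 to 2.61), a log2 ratio of 1.08, but at 0.44 with cells thinned to 3000 UMIs and 0.47 with 2 or more UMIs of the class genes, both under 1.5-fold.

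In the CD8 class Ccr8 was higher in Csf2+, Xcl1+, Areg+ and Ifng+ cells, although most of its 52 Ccr8+ cells lay outside each of these classes (5 were Csf2+, 16 Xcl1+, 17 Areg+ and 13 Ifng+). Ccr8 was found in 17.9% of 28 Csf2+ cells and 1.99% of Csf2- cells, at a ratio of 10.5 (6.69 to 15.8). It was found in 8.79% of 182 Xcl1+ cells and 1.63% of Xcl1- cells, at a ratio of 3.23 (2.38 to 4.34), Xcl1 being the chemokine lymphotactin. In 223 Areg+ cells it was found in 7.62%, against 1.61% of Areg- cells, at a ratio of 4.06 (3.05 to 5.36). In 570 Ifng+ cells the ratio was 1.74 (1.32 to 2.28), while the shares, 2.28% of Ifng+ and 2.14% of Ifng- cells, were alike, and the log2 ratio was 0.51 with 1 cell per clonotype and 0.55 with another thinning seed, under 1.5-fold. With 1 cell per clonotype the log2 ratio was 0.89 in Xcl1+ and 1.02 in Areg+ cells, against 1.69 and 2.02. Genes of tissue dissociation summed to 86.7 per 10000 in Csf2+ and 44.0 in Csf2- cells, to 59.5 in Xcl1+ and 42.9 in Xcl1- cells, to 56.3 in Areg+ and 43.1 in Areg- cells and to 58.8 in Ifng+ and 40.0 in Ifng- cells, and their part was not tested.

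Ccr9 and Cxcr3 were lower in Xcl1+ and Areg+ CD8 class cells. In Xcl1+ cells Ccr9 stood at 0.381 of its level in Xcl1- cells (0.211 to 0.637), Cxcr3 at 0.534 (0.427 to 0.659) and Ccr2 at 0.340 (0.266 to 0.430). In Areg+ cells Ccr9 stood at 0.538 (0.333 to 0.828) and Cxcr3 at 0.545 (0.440 to 0.669) of the level in Areg- cells, and Cxcr4 was higher at 1.597 (1.33 to 1.91). The log2 ratio of Ccr9 in Areg+ cells was -0.34 without the largest clonotype and -0.16 when each clonotype gave 1 cell, against -0.89, and that of Cxcr4 was 0.49 under the same choice of cells, against 0.68. Past 1.5-fold were 4 of 7 measured receptors in Xcl1+ cells and 4 of 7 in Areg+ cells, beside 17% and 13.1% of all genes. The counts were 1 of 7 in Ifng+ cells (5.7% of all genes), 0 of 7 in Tnf+ cells (16.7%), 3 of 7 in Csf2+ cells (36.3%) and 4 of 6 in 33 Il10+ cells (38.2%). Xcl1+ and Areg+ cells were deeper, with medians of 5771 and 5611 UMIs, against 4875 in Xcl1- and 4840 in Areg- cells.

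**Figure D2:**
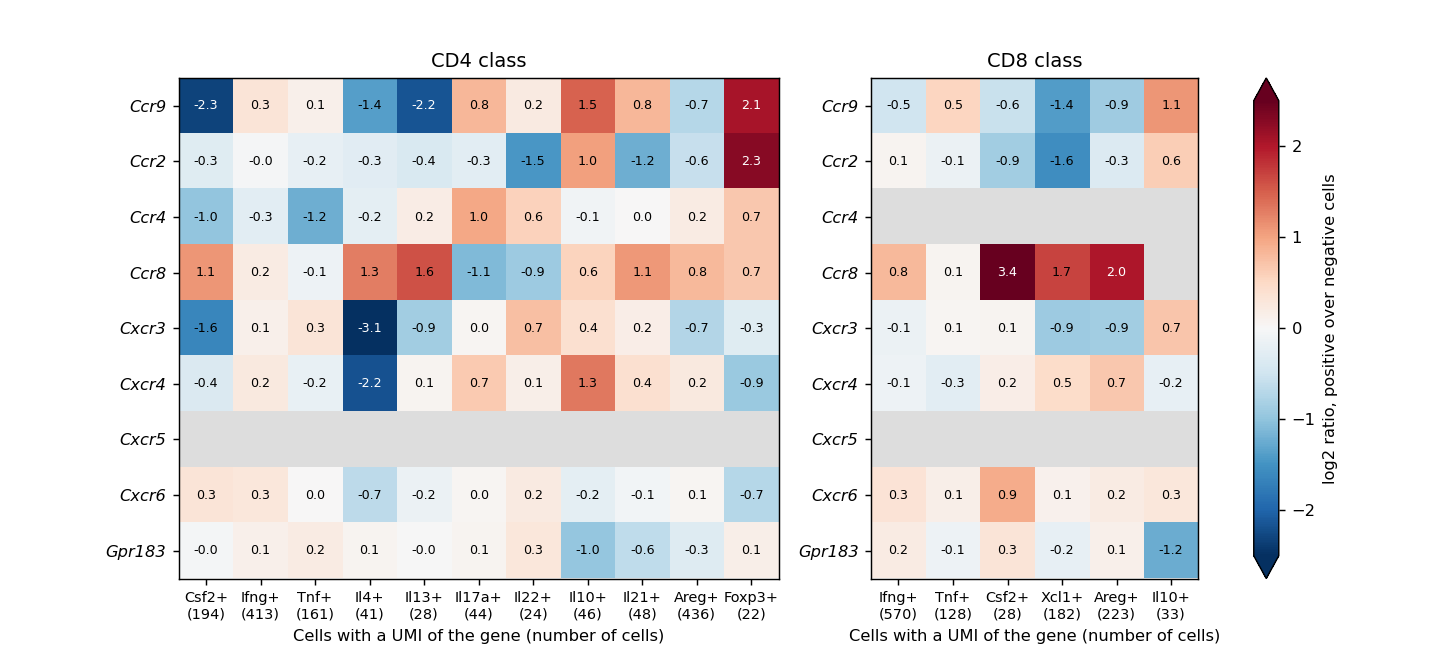
Log2 ratio of each receptor's level in cells with a UMI of the gene named below the column over the other cells of the class (colour and number), with the number of positive cells in brackets; grey fields had under 50 UMIs or no defined ratio. The Ccr8 row is positive for Csf2, Il4, Il13 and Areg in the CD4 class and for Csf2, Xcl1 and Areg in the CD8 class. The Ccr9 row is negative for those of the CD4 class and for Xcl1 and Areg in the CD8 class. With 1 cell per clonotype, Ccr9 stood at 0.0927 for Il4 in the CD4 class and -0.16 for Areg in the CD8 class.

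The same relations were read from the receptor side, comparing cells with a receptor UMI with the other cells of their class. In the CD4 class, Ccr8+ cells (411) had more type 2 and chemokine transcripts. Il4 stood at 0.473 per 10000 in Ccr8+ and 0.128 in Ccr8- cells (ratio 3.70, 2.81 to 4.87), Il13 at 0.428 and 0.153 (2.80, 2.13 to 3.67), and Gata3, the type 2 lineage factor, at 1.57 and 0.793 (1.98, 1.73 to 2.25). Ccl1, the receptor's own ligand, stood at 4.46 per 10000 in Ccr8+ and 1.46 in Ccr8- cells, a ratio of 3.05 (2.81 to 3.32). The inflammatory chemokines Ccl3 and Ccl4 were at ratios of 4.15 and 2.90, with 44.1% of the Ccl3 UMIs of Ccr8+ cells in 1 cell, without which the log2 ratio was 1.22, against 2.05. Of the type 2 list 5 of 6 measured genes were past 1.5-fold higher and 1 lower, and of 16 cytokines 10 higher and 1 lower, beside 11.5% of all genes. All 10 cycling genes were lower, such as Rrm2 at 0.280 (0.216 to 0.357). S1pr1, the receptor by which T cells leave tissues, was lower at 0.314 (0.220 to 0.435), and so was its regulator Klf2 at 0.589 (0.518 to 0.667).

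Ccr9+ CD4 class cells (89) had less of most of these. Ccl1 had 1 UMI in them and 2280 in Ccr9- cells, a ratio of 0.00740 (0.000187 to 0.0413). Csf2 stood at 0.129 per 10000 in Ccr9+ and 1.57 in Ccr9- cells (ratio 0.0822, 0.0354 to 0.162), Ifitm1 at 0.273 and 5.17, and the opioid precursor Penk at 0.290 and 3.74. Foxp3 was higher in Ccr9+ cells, with 21 UMIs at a ratio of 4.66 (2.73 to 7.64), but this rests on few cells: it was found in 3.37% of Ccr9+ (0.701 to 9.54) and 1.07% of Ccr9- cells, and 1 cell held 33.3% of its UMIs. The converse, Ccr9 in Foxp3+ cells, had a log2 ratio of 2.06, and -0.84 when each clonotype gave 1 cell. Itgae, the integrin chain that binds epithelial E-cadherin, stood at 0.370 in Ccr9+ and 0.143 in Ccr9- cells (ratio 2.59, 1.59 to 4.03). Of the type 17 list 6 of 8 genes were higher and none lower, and of the type 2 list 5 of 6 were lower, beside 19.6% of all genes. The type 17 genes rest on few cells as well: 1 cell held 57.1% of the Il17a and 85.7% of the Il22 UMIs of Ccr9+ cells, and with 1 cell per clonotype Il17a stood at a log2 ratio of -0.19, against 0.92. Ccr9+ cells were deeper, at a median of 5980 UMIs against 4724 in Ccr9- cells. The overlapping gene Lztfl1 was also higher in Ccr9+ cells, at 2.29 (1.82 to 2.85), and how its reads and those of Ccr9 were split was not tested.

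Ccr2+ CD4 class cells (428) had more Foxp3, with 64 UMIs in Ccr2+ and 33 in Ccr2- cells (ratio 7.59, 4.91 to 11.9). This rests on few cells, as Foxp3 was found in 2.80% of Ccr2+ (1.46 to 4.85) and 0.698% of Ccr2- cells (0.335 to 1.28). Granzyme B, a killing protease, stood at 9.86 per 10000 in Ccr2+ and 3.65 in Ccr2- cells (Gzmb, ratio 2.70, 2.56 to 2.85), and the inhibitory receptor Klrg1 at 0.460 and 0.131 (3.51, 2.67 to 4.61). Of 10 cytotoxic genes 4 were higher and none lower, of 10 cycling genes 8 were lower, and of 16 cytokines 8 were lower and none higher, beside 11.5% of all genes.

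Cxcr3+ CD4 class cells (366) had more of genes known from less differentiated, recirculating T cells. S1pr1 was at a ratio of 1.96 (1.63 to 2.36), Tcf7 at 1.76 (1.49 to 2.08) and Klf2 at 1.65 (1.5001 to 1.81), while Ccr7, the lymph node homing receptor, was lower at 0.424 (0.281 to 0.618). Of 8 genes of the naive or central memory list 3 were higher and 1 lower. All 6 measured genes of the type 2 list were lower, among them Areg at 0.342 (0.304 to 0.384) and Il4 at 0.144 (0.0572 to 0.302), beside 7.86% of all genes.

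Cxcr4+ CD4 class cells (244) carried more Tox, at 0.882 per 10000 in Cxcr4+ and 0.2999 in Cxcr4- cells (ratio 2.94, 2.36 to 3.64), Il10 at 0.448 and 0.139 (3.22, 2.35 to 4.38) and Eomes at 0.491 and 0.202 (2.43, 1.82 to 3.21). Gata3 was lower at 0.432 (0.329 to 0.559). Of 8 genes of the follicular helper list 4 were higher and none lower, among them Bcl6 at 1.94 (1.29 to 2.86), beside 11.5% of all genes. Apoe, highest by the rule used, had 81.2% of its UMIs in 1 cell and its log2 ratio was -0.50 without that cell, against 1.90.

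Ccr4+ CD4 class cells (108) had more of the sialyltransferase St6gal1 at 3.14 (2.04 to 4.69), the interleukin 9 receptor Il9r at 4.14 (2.002 to 7.89) and lymphotoxin alpha (Lta) at 2.36 (1.64 to 3.31), and less Ifitm1 at 0.195 (0.149 to 0.2499) and Xcl1 at 0.227 (0.117 to 0.398). Il9r had 12 UMIs in Ccr4+ cells and was found in 2.78% of them (0.577 to 7.90), against 0.970% of Ccr4- cells (0.566 to 1.55). With 1 cell per clonotype Lta stood at a log2 ratio of -0.29, against 1.24. Past 1.5-fold were 18% of all genes.

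Cxcr6+ and Gpr183+ CD4 class cells (872 and 532) stood apart least, with 6.52% and 5.54% of all genes past 1.5-fold. Cxcr6+ cells had less Ccr7 at 0.305 (0.229 to 0.400), and more Ramp1 at 2.55 (2.06 to 3.17) and Itga1, a collagen-binding integrin of resident cells, at 1.75 (1.31 to 2.35). Their Cxcl2 and Il1b ratios were 9.38 and 3.16, and without myeloid barcodes the log2 ratios were -0.75 and -0.51. In Gpr183+ cells Penk was lower at 0.228 (0.202 to 0.256), and Cxcl2 was higher with 96.0% of its UMIs in 1 cell. The overlapping gene Fyco1 was higher in Cxcr6+ cells at 1.79 (1.40 to 2.30), while Ubac2 in Gpr183+ cells stood at 0.921 (0.823 to 1.03).

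**Figure D3:**
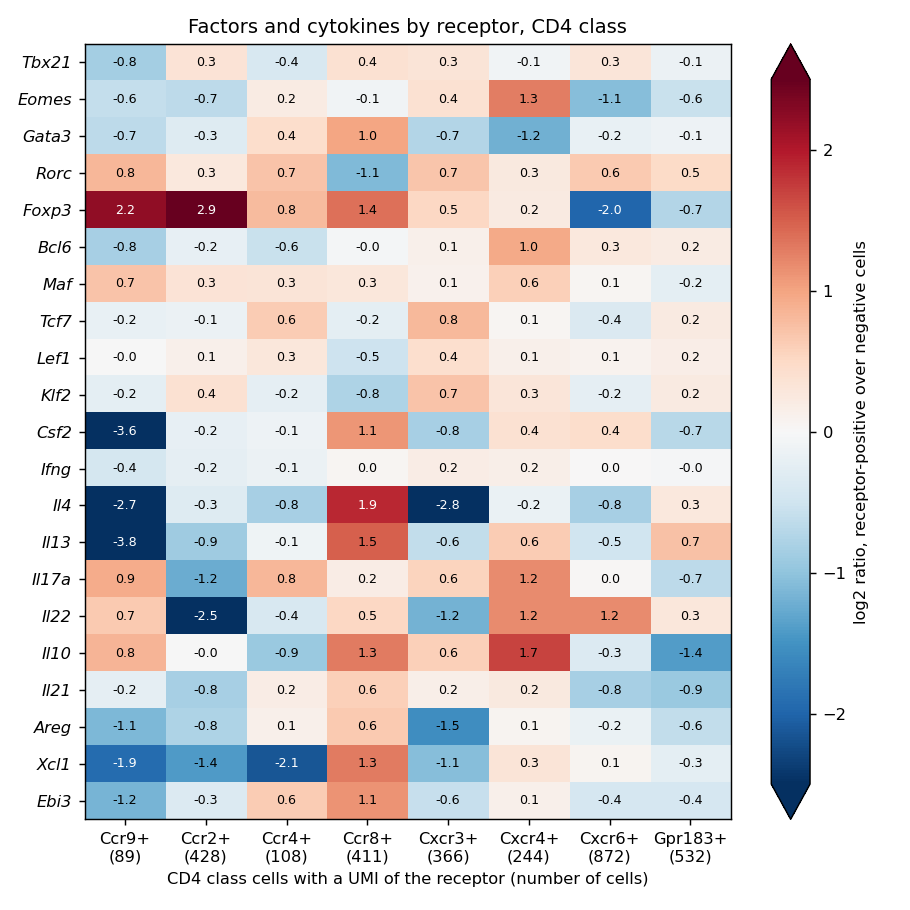
Log2 ratio of lineage factors and cytokines (rows) in CD4 class cells with a UMI of each receptor over cells without (columns, number of positive cells in brackets). The Ccr8+ column is positive for Gata3, Il4, Il13, Csf2 and Xcl1, where the Ccr9+ and Cxcr3+ columns are negative, Foxp3 is highest in the Ccr2+ column and Il10, Eomes and Bcl6 are highest in the Cxcr4+ column.

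In the CD8 class, Ccr9+ cells (111) had more Itgae, at 0.654 per 10000 in Ccr9+ and 0.174 in Ccr9- cells (ratio 3.75, 2.63 to 5.24), and without the largest clonotype the log2 ratio was 1.74, against 1.91. The natural killer receptor genes Klrk1 (0.166, 0.0881 to 0.284), Klrc1 (0.253, 0.182 to 0.343) and Klrd1 (0.388, 0.272 to 0.537) were lower, as were 6 of 10 cytotoxic genes, beside 22.4% of all genes. Lztfl1 was higher at 2.96 (2.32 to 3.73). Ccr8+ CD8 class cells (52) had more Csf2, at 1.65 per 10000 in Ccr8+ and 0.110 in Ccr8- cells (ratio 15.0, 10.997 to 20.1), Tnfsf11, the ligand RANKL, at 7.37 (5.07 to 10.5), Xcl1 at 3.73 (3.19 to 4.35) and Areg at 3.56 (3.05 to 4.12), and less Gzmb at 0.380 (0.343 to 0.420) and Gzmk at 0.323 (0.241 to 0.422). No Ccr9 UMI was found in them, a ratio of 0.3002 when set to the floor of 3 UMIs, with an upper interval bound of 0.371. Dissociation genes were past 1.5-fold higher for 7 of 14, beside 28.1% of all genes, and their part was not tested.

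In the other CD8 class comparisons, Cxcr6+ cells (1083) had 4 of 10 resident memory genes higher and none lower, such as Zfp683, the factor Hobit, at 2.09 (1.35 to 3.27) and Itga1 at 1.69 (1.44 to 1.99), beside 5.92% of all genes. Cxcr3+ cells (497) had less granzyme A at 0.448 (Gzma, 0.431 to 0.466) and more Gzmk at 1.41 (1.33 to 1.498), with 7.88% of all genes past 1.5-fold. Ccr2+ cells (513) had all 6 measured myeloid genes higher, beside 7.69% of all genes, and the log2 ratio of Lyz2 was -0.34 without myeloid barcodes, against 2.54. Cxcr4+ and Gpr183+ cells (249 and 641) had 8.86% and 5.25% of all genes past 1.5-fold.

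Cells with 2 receptors were close in number to what the shares give if independent. Of pairs with 5 or more expected cells, 29 in the CD4 class had a median observed over expected of 1.004 and 20 in the CD8 class one of 1.01. Past 1.5-fold were 4 of 29 and 3 of 20 pairs. Ccr4 and Ccr8 went together in the CD4 class: 36 cells had both, where 23.9 were expected (1.51), and 33.3% of Ccr4+ cells had Ccr8 (24.6 to 43.1), against 21.4% of Ccr4- cells (19.5 to 23.4). This ratio lay between 1.16 and 1.61 under the other settings. Ccr9 and Ccr8 met in 7 cells where 19.7 were expected (0.356), but the ratio was 0.829 with no thinning and 0.907 at 3000 UMIs. Ccr9 with Ccr4 (0.581 at 3 cells) was 1.73 at 3000 UMIs, so no direction can be read. Ccr8 was under-represented with Cxcr3, in 59 cells where 80.8 were expected (0.730), and over-represented with Cxcr4, in 72 cells where 53.9 were expected (1.34), neither past 1.5-fold.

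Cxcr5 and Cxcr6 met in 3 CD4 class cells where 7.50 were expected (0.400), with 0.134 to 0.412 under the other settings. This rests on 16 Cxcr5+ cells, of which 18.75% had Cxcr6 (4.05 to 45.6), against 47.1% of Cxcr5- cells (44.8 to 49.4), and the intervals overlap. In the CD8 class Ccr9 went with Cxcr3 in 35 cells where 23.1 were expected (1.52, and 1.23 to 1.696 under the other settings), so that 31.5% of Ccr9+ cells had Cxcr3 (23.0 to 41.0), against 20.3% of Ccr9- cells. Both receptors were more frequent in the largest clonotype of the class (below), and without it the ratio was 1.36, under 1.5-fold. It was also under 1.5-fold with no thinning (1.23), at 3000 UMIs (1.43) and without myeloid barcodes (1.49). The ratios of Ccr9 with Cxcr4 (0.346) and of Ccr8 with Cxcr4 (2.03) in this class were 0.910 and 0.943 at 3000 UMIs.

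**Figure D4:**
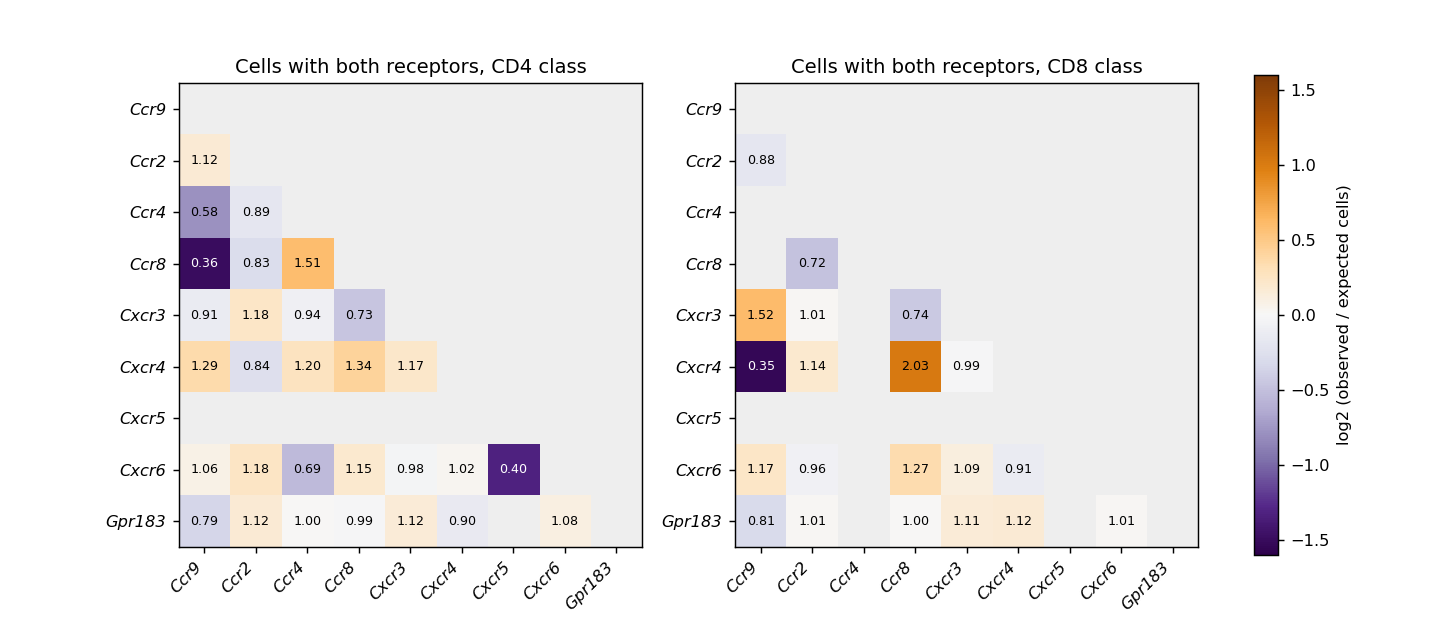
Observed over expected number of cells with both receptors (numbers) in each class, coloured on a log2 scale; grey fields had under 5 expected cells. Most fields lie near 1, with Ccr4 and Ccr8 at 1.51 in the CD4 class and Ccr9 and Cxcr3 at 1.52 in the CD8 class. The former was 1.16 when thinned to 1000 UMIs, and the latter 1.36 without the largest clonotype of the class.

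The third question was how the receptors are spread over clonotypes. A clonotype is here all cells with the same V segments, J segments and CDR3 nucleotides in their alpha and beta chains, as descendants of a T cell share them, and those of 2 or more cells count as expanded. In the CD4 class 672 cells were of expanded and 213 of single-cell clonotypes. Ccr8 was lower in expanded ones, at 1.42 per 10000 in expanded (1.31 to 1.53) and 2.13 in single-cell clonotypes (1.90 to 2.38), a ratio of 0.666 (0.580 to 0.766). Its log2 ratio, -0.586, lay at the 1.5-fold limit. It fell under 1.5-fold with at most 5% mitochondrial UMIs (-0.584), with 2 or more UMIs of the class genes (-0.575) and with every cell weighted alike (-0.461). Cxcr4 was higher at 1.78 (1.39 to 2.30), with 16.7% of expanded and 9.86% of single cells, Ccr9 at 1.62 (1.17 to 2.28) and Ccr4 at 1.56 (1.08 to 2.32). These were 4 of 8 receptors, beside 9.91% of all genes, and 2 of 8 with every cell weighted alike.

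In the CD8 class 1028 cells were of expanded and 242 of single-cell clonotypes, and 2 of 7 receptors were past 1.5-fold, beside 7.46% of all genes. Ccr8 was lower in expanded clonotypes, at 0.0929 per 10000 in expanded and 0.407 in single-cell ones (ratio 0.228, 0.162 to 0.322), and found in 0.973% of expanded and 4.55% of single cells. Ccr9 was higher at 1.58 (1.10 to 2.34), but this rested on 1 clonotype: without it the log2 ratio was -0.55, against 0.66.

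That clonotype, the largest of the pool, held 263 kept cells, 259 of them in the CD8 class. Ccr9 was found in 39 of the 259 (15.1%, 10.9 to 20.005) and in 72 of the other 2132 CD8 class cells (3.38%, 2.65 to 4.23). Its level was 4.65 times that of the rest of the class (3.75 to 5.75) and 6.04 times that of the other cells with a clonotype (4.64 to 7.87). The clonotype made 10.8% of the class and held 35.1% of its Ccr9+ cells. Cxcr3 was also higher in it, in 32.4% of its cells and 19.4% of the rest (ratio 1.58, 1.38 to 1.799). Ccr8 was found in 0 of its 259 cells after thinning, with an upper bound of 1.41%, and in 2.44% of the rest. Ccr2 was at 0.650 (0.547 to 0.767) and Cxcr6 at 0.800 (0.725 to 0.882) of the level in the rest. Its median depth was 4973 UMIs. The other 3 of the 4 largest CD8 class clonotypes had Ccr9 in 2 of 87, 2 of 80 and 0 of 54 cells. Because the mice of the pool cannot be told apart, a feature of this clonotype may also be one of a single mouse.

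Among the large CD4 class clonotypes the receptors were spread unevenly. Clonotypes 1, 2, 3 and 4, with 40, 40, 38 and 33 CD4 class cells, had Ccr8 in 40.0% (24.9 to 56.7), 7.50% (1.57 to 20.4), 31.6% (17.5 to 48.7) and 6.06% (0.743 to 20.2) of cells. Cxcr4 was found in 25.0%, 2.5%, 28.9% and 12.1%, and Cxcr6 in 42.5%, 62.5%, 31.6% and 60.6%. Ccr9 was found in 0 of 40, 4 of 40, 0 of 38 and 1 of 33 cells. Clonotypes 1 and 3 were thus above clonotypes 2 and 4 in Ccr8 and Cxcr4 and below them in Cxcr6, and had no Ccr9+ cell after thinning, with wide and often overlapping intervals. Clonotype 7, chosen after its values were seen, had Cxcr4 in 14 of 29 cells (48.3%, 29.4 to 67.5) and Cxcr5 in 3, and Cxcr6 in 13.8%.

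Over the 16 CD4 class clonotypes with 10 or more cells, Ccr8 was found in 3.23% to 40.0% of cells (median 14.7), Cxcr6 in 13.8% to 72.7% (47.6), Cxcr3 in 5.56% to 38.7% (21.2), Cxcr4 in 0% to 48.3% (18.8), Ccr2 in 6.67% to 30.3% (16.2) and Gpr183 in 0% to 50% (27.5). Ccr9 was not found in 8 and Ccr4 in 7 of the 16. Over the 20 CD8 class clonotypes of this size, Ccr9 was not found in 12, Ccr8 in 17 and Cxcr5 in any. Cxcr6 ranged from 9.09% to 81.8% (median 41.4), Ccr2 from 0% to 47.1% (20.2), Cxcr3 from 4.76% to 32.4% (20.7) and Gpr183 from 0% to 50% (25.2).

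**Figure D5:**
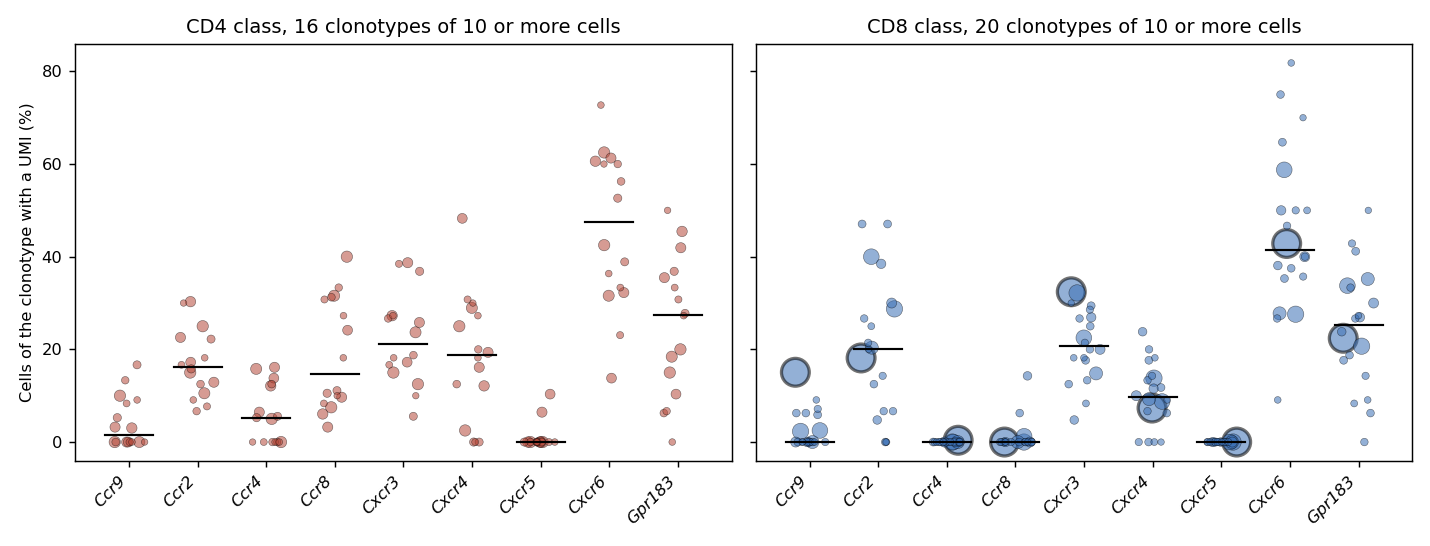
Share of cells with a UMI of each receptor (percent, thinned cells) in each clonotype with 10 or more cells of the class; point area grows with the number of cells, lines are medians over clonotypes, and the thick outline marks the largest CD8 class clonotype. That clonotype stands at 15.1% for Ccr9, where the median of the 20 is 0, and CD4 class clonotypes range from 3.23% to 40.0% for Ccr8.

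Cells of 1 clonotype were compared in pairs. Among pairs of cells of 1 CD8 class clonotype whose first cell had Ccr9, 14.2% of second cells had it, against 5.35% of all cells of expanded clonotypes, 2.65 times as many. The largest clonotype, with 259 cells, held 39 of the 55 positive cells and gave nearly all of these pairs. This value therefore restates its own share of 15.1% and does not tell how Ccr9 is shared within other clonotypes. Without the largest clonotype fewer than 20 positive cells were left, and no value was taken. In the CD4 class the same ratio was 1.504 for Cxcr4 (25.1% of partners, 16.7% of cells), 1.37 for Ccr8 (27.0% and 19.8%), 1.38 for Ccr4 and 1.21 for Ccr9. Under the other settings it lay between 1.17 and 1.65 for Cxcr4 and between 1.199 and 1.49 for Ccr8, while for Ccr4 it was 0.634 when thinned to 1000 UMIs and 0.811 at 3000 UMIs, so that no direction can be read. It was 1.09 for Cxcr6, 1.05 for Gpr183, 0.988 for Cxcr3 and 0.963 for Ccr2, and in the CD8 class 1.33 for Cxcr3, 1.01 for Ccr2, 1.001 for Cxcr6, 0.970 for Gpr183 and 0.772 for Cxcr4. Without the largest clonotype the CD8 class ratio of Ccr2 was 1.33 and that of Gpr183 1.12.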

How the data were processed

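RNA and T cell receptor libraries of 1 pool of sorted colon T cells were analysed. The deposited matrix holds raw UMI counts per gene and barcode, and the deposited contig table gives productive TRA and TRB chains with read and UMI counts. Cell Ranger and mm10 are named per the submitters' processing notes. Versions, the TCR reference and any use of strand are not given in the sources used here.

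Left out were barcodes with under 500 genes or over 10% mitochondrial UMIs (1 and 15 barcodes). CD4 and CD8 classes use all UMIs, and cytokine or receptor classes and shares use cells thinned to 2000 UMIs. Levels sum all UMIs of a group per 10000. A gene was called past 1.5-fold with 50 or more UMIs over both groups, and a group at 0 was set to a floor of 3 UMIs. Intervals are 95% and cover counting error only. Clonotypes join barcodes with identical V genes, J genes and CDR3 nucleotides in all productive chains, if these were 1 TRB with 1 or more TRA. No doublet caller was run, and 232 kept barcodes (4.35%) with 2 or more productive TRB chains stayed in, with an alternative without them.

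Named were all members, the 4 highest and 3 lowest genes of each receptor-positive group, up to 4 genes of a list per comparison and the 4 largest clonotypes of each class. Results for some listed genes are not reported here. The members, lists and comparisons were chosen with earlier results of these data known. Alternatives covered filters, thinning, weighting, clonotypes and single cells, and 5 alternatives for genes of receptor-positive cells were added after seeing the data. Simulated counts of known fold were used to test the ratios. Tools were matplotlib 3.10.9, pandas 2.3.3, scipy 1.17.1, numpy 2.4.6 and Python 3.11.15.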

Additional observations from a re-analysis of the deposited data

How the results depend on the processing

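No paired analysis was possible because the series holds 1 pool with no replicates. Alternatives gave 1044 values of 86 single results. Followed were 60 log2 ratios past 1.5-fold whose interval left out a ratio of 1. For these, 13 of 786 values turned in direction and 61 fell under 1.5-fold (27 of the 60 ratios). Ratios past the fold with an interval that includes 1 were not followed. These were Ccr4 and Cxcr4 in Foxp3+ CD4 class cells and Ccr9 in Il10+ CD8 class cells. Between CD4 and CD8 class 5 of 45 values of the receptors under 1.5-fold turned, of Cxcr3, which lay near 0, and of Cxcr4. For 7 co-detected pairs past 1.5-fold 4 of 61 values turned and 12 fell under it, and 25 of 152 values of pairs within clonotypes lay on the other side of 1. The count past 1.5-fold stayed within 1.5 times its value in the comparison of CD4 with CD8 class (4 of 9) and in those of cytokine classes (37 of 88 in the CD4 class, 16 of 41 in the CD8 class). The shares of all genes that belong beside these counts are given with each comparison above. For expanded clonotypes it was 2 with every cell weighted alike in the CD4 class, against 4, and in the CD8 class 1 without the largest clonotype and 4 with clonotypes from TRB alone, against 2. For co-detection it was 4 at 3000 UMIs and 4 with 1 cell per clonotype, against 7, and for pairs within clonotypes it was 1, against 2, with at most 5% mitochondrial UMIs, at 3000 UMIs, with no thinning, without the largest clonotype, with 2 or more UMIs of the class genes and with TRB alone. With 1 cell per clonotype the log2 ratio turned to 0.0927 for Ccr9 in Il4+, 0.0378 for Ccr8 in Il17a+, 0.24 for Gpr183 in Il21+ and -0.84 for Ccr9 in Foxp3+ CD4 class cells. Thinned to 1000 UMIs it was 0.0072 for Cxcr6 in Il4+, -0.016 for Ccr2 in Il10+ and -0.60 for Ccr9 in Il21+ CD4 class cells. With classes set by 2 or more UMIs it was -0.62 for Cxcr3 in Il22+ and -0.29 for Ccr9 in Foxp3+ cells, and with 2 or more UMIs of the class genes -0.13 for Ccr9 in Il21+ cells. It was -0.14 for Cxcr4 in Il17a+ cells without the cell that held most of its UMIs, -0.0576 for Ccr2 in Il10+ CD8 class cells with another thinning seed, and -0.55 for Ccr9 in expanded CD8 class clonotypes without the largest. Apart from settings that remove cells by their construction, the cause was not tested. Classes of under 50 cells and receptors with few UMIs limit what this depth can show.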
